A study of Mus musculus with 6 samples.

Results

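The genes described here encode the receptors of the epidermal growth factor (EGF) and fibroblast growth factor (FGF) families and 3 of their ligands. They were chosen by symbol: Egfr, Erbb2, Erbb3 and Erbb4 for the EGF side, Fgfr1, Fgfr2 and Fgfr3 for the FGF side, and the ligand genes Hbegf, Nrg1 and Fgf2, which makes 10 of the 53110 genes in the deposited table. Each symbol matched a single entry of the table. RNA-seq had been carried out on primary neural stem cells (NSCs) from the embryonic mouse cortex, of WT and Setd5+/- genotype, and 3 samples of each genotype are labelled. Setd5+/- cells carry a mutation of 1 copy of Setd5, the gene of a SET domain protein, made with CRISPR-Cas9. Cells of both genotypes grew attached to Matrigel in 21% oxygen, in a medium with heparin and with EGF and basic FGF (the protein encoded by Fgf2) at 10 ng/ml each. The ligands of the main receptors were therefore supplied to WT and Setd5+/- cells alike.

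The ErbB receptors are receptor tyrosine kinases that act in pairs. EGFR binds EGF, TGF-alpha and HB-EGF, ERBB4 binds neuregulins and also HB-EGF, ERBB2 binds no known ligand but is the favoured partner of the others, and ERBB3 binds neuregulins and has little kinase activity of its own. FGF receptors need heparan sulfate, or heparin, to form a stable complex with FGF ligands. Both families signal through RAS and the ERK kinases, and cultured neural stem cells are commonly kept dividing with EGF and FGF2 together.

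The depth was 30004634 counted reads in WT and 21435546 in Setd5+/-, and the values are normalized counts, that is, reads counted on a gene divided by the authors' size factor of the sample. The 3 samples of a genotype differed from each other no more than portions of a single library would, if 2 counted reads stand for 1 read pair. On counts halved to read pairs, the chi-square per degree of freedom was 0.961 to 0.986 in the 6 comparisons within a genotype. It was 34.9 to 35.0 in the 9 between genotypes. Without the halving, counts varied at 1.94 times their mean within a genotype. The column names of the 3 samples of a genotype share an index and a lane. The names of the Setd5+/- columns carry 1 clone name, which is not among the clones named in the study's text. The samples were thus counted as 1 library per genotype. No test between genotypes was possible, and no p-value is given. Each error below is a 95% counting interval, which covers the sampling of reads only, and genotype cannot be told apart from clone, library, index or lane. A gene was compared if its mean over the 6 samples was at least 10 normalized counts, which 16266 genes reached, and a fold change of at least 2 in either direction was counted as a difference.

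The promoters of 3 of the 10 genes are printed. Egfr had the highest level per kb among the ErbB receptors. Erbb2 and Fgfr2 had the largest fold changes among those receptor genes of the 10 that were above the minimum mean. Each is the stretch of 250 bases before the annotated start in RefSeq (GRCm38.p6), read 5′ to 3′ on the gene's strand, with CpG dinucleotides in capitals. The Egfr stretch lies at chr11:16751953-16752202 (+), the Erbb2 stretch at chr11:98412234-98412483 (+) and the Fgfr2 stretch at chr7:130266809-130267058 (-). In the GENCODE M21 annotation Fgfr2 has 27 transcripts and a span up to 133123350. The Fgfr2 stretch lies inside that span and stands for 1 RefSeq start only. The Erbb2 stretch runs past the GENCODE M21 start of the gene at 98412470.
Egfr: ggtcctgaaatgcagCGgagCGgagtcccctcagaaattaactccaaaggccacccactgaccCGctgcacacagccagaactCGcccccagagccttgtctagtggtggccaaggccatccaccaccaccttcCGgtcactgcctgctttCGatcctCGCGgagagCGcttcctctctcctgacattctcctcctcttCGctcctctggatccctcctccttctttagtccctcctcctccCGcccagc
Erbb2: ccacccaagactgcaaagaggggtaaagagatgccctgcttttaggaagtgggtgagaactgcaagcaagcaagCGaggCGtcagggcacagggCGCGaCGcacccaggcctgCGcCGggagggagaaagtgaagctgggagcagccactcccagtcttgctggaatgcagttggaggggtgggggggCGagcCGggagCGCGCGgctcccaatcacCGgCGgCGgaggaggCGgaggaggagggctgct
Fgfr2: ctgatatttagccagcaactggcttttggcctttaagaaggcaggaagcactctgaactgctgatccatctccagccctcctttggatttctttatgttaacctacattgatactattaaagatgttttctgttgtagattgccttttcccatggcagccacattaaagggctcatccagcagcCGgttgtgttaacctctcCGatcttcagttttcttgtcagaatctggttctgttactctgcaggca
The Egfr stretch held 11 CpG and 60.8% G or C, the Erbb2 stretch 16 CpG and 66% G or C, and the Fgfr2 stretch 2 CpG and 44% G or C. Among 32851 stretches of the same length at 27025 genes the median was 6 CpG, and 35.6%, 25.4% and 81.2% of them had at least as many CpG as the Egfr, Erbb2 and Fgfr2 stretches. RefSeq promoters were matched for 6 of the 10 genes, with 2 for Fgfr3. Erbb3, Fgfr1, Hbegf and Nrg1 had no entry.

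None of the 8 genes that reached the minimum mean differed by 2-fold between Setd5+/- and WT, against 16.4% of all tested genes (10.3% higher and 6.14% lower in Setd5+/-). None passed 1.5-fold either, against 35.2% of all tested genes. Egfr, Erbb2, Fgfr2 and Hbegf were modestly higher in Setd5+/-, Fgfr1 was slightly lower, Erbb4 was lower at the edge of its interval, and Fgfr3 and Fgf2 had intervals that included 0. Erbb3 and Nrg1 fell below the minimum mean. The log2 fold changes of the 8 genes ran from −0.11 to 0.46 with a median of 0.11, where the median over all tested genes was −0.018 and the median absolute value over all tested genes was 0.40. The interval left out 0 for 6 of the 8 genes, and the sample values of the genotypes did not overlap for the same 6, against a background of 65.3% of tested genes for each of these counts. Of the 6, 4 were higher, where 32.6% of tested genes were, and 2 were lower, where 32.7% were. These counts were thus close to those of all genes, and at this depth most genes differed between the libraries by more than counting error.

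**Figure D1:**
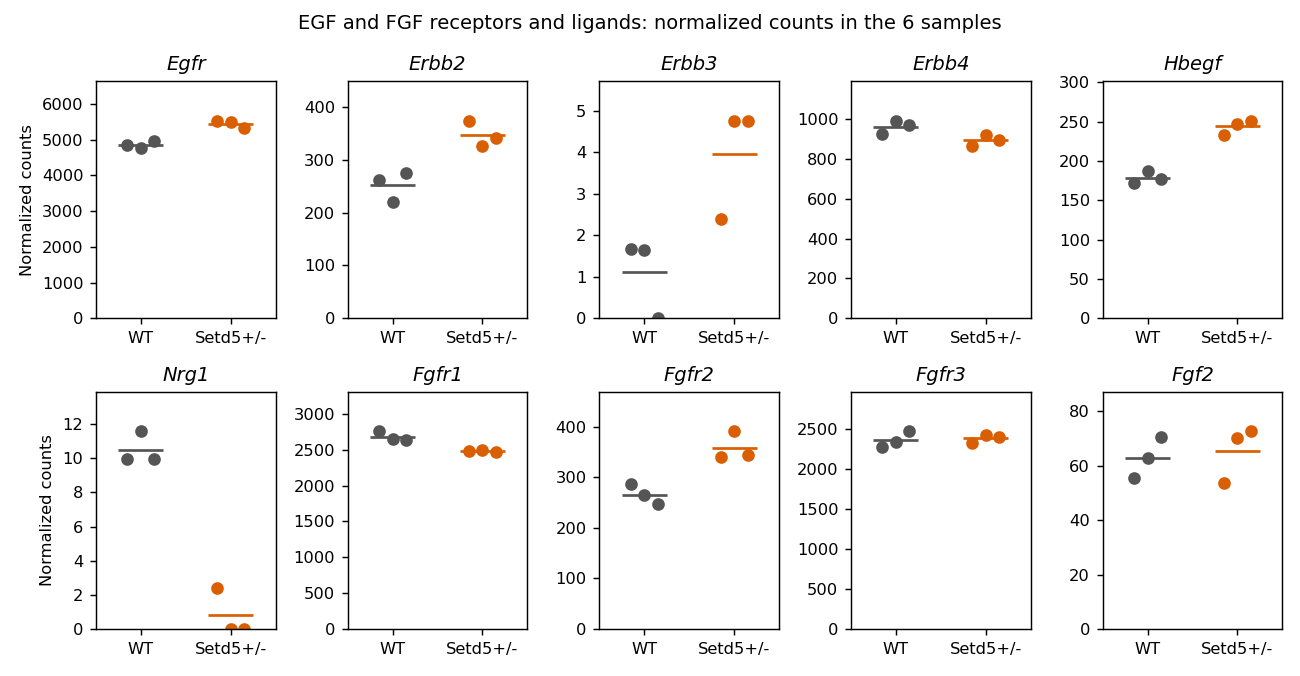
Normalized counts of each of the 10 genes in the 3 WT and 3 Setd5+/- samples, 1 panel per gene, each point a sample and each line the mean of a genotype. The points of Egfr, Erbb2, Fgfr2 and Hbegf are all higher in Setd5+/-, those of Fgfr3 and Fgf2 overlap, and Erbb3 and Nrg1 stay below 12 normalized counts in every sample.

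Setd5, the mutated gene, had normalized counts of 2498, 2749 and 2780 in WT samples, against 2151, 1990 and 2055 in those of Setd5+/-. Every sample labelled Setd5+/- was below every WT sample, and the log2 fold change was −0.37 (−0.44 to −0.31). How the mutation acts on the level of the transcript is not stated in the labels.

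Egfr, the receptor for the EGF added to the medium, lies on chromosome 11 from 16752203 to 16918158 on the plus strand (ENSMUSG00000020122; all gene positions are from GENCODE M21 on GRCm38/mm10). Its samples held 4854, 4766 and 4959 normalized counts in WT against 5535, 5490 and 5326 in Setd5+/-. Every Setd5+/- sample was above every WT sample, and the mean was 12.2% higher, a log2 fold change of 0.17 (0.12 to 0.21). The interval was narrow because 17602 reads in WT and 13725 in Setd5+/- stood behind it. Of all tested genes, 22.9% had a smaller absolute change.

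Erbb2, the gene of the partner receptor without a ligand of its own, lies on chromosome 11 from 98412470 to 98437716 on the plus strand (ENSMUSG00000062312). The WT samples had 261, 221 and 275 normalized counts and the Setd5+/- samples 374, 326 and 342. The groups did not overlap, and the log2 fold change of 0.46 (0.27 to 0.65), or 1.38-fold, was the highest of the 8 tested genes named above. Its exons share 9 bases with Mien1 on the other strand, and Mien1 went the other way, from 237 to 181 normalized counts.

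Erbb4, a neuregulin receptor, lies on chromosome 1 from 68032186 to 69108059 on the minus strand (ENSMUSG00000062209). Its WT samples had 925, 994 and 972 normalized counts and its Setd5+/- samples 866, 923 and 896. The groups came close without overlapping. The log2 fold change was −0.11, and its interval of −0.21 to −0.00012 stopped just short of 0, while the exact interval of the fold, 0.862 to 1.00, included 1. Chromosome 1 stood apart in these libraries: over its 1044 tested genes the median log2 fold change was 0.53 and 79.2% of them were higher in Setd5+/-, whereas genes on all other chromosomes had a median of −0.042. Relative to the median of its chromosome Erbb4 was lower by a log2 difference of −0.64, and 16.4% of the tested genes on chromosome 1 had a lower log2 fold change. Whether the shift of chromosome 1 bears on Erbb4 was not tested.

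Erbb3, the other neuregulin receptor, was near the limit of detection. It lies on chromosome 10 from 128567523 to 128589652 on the minus strand (ENSMUSG00000018166) and received 2, 2 and 0 reads in WT samples, against 2, 4 and 4 in those of Setd5+/-. Means were 1.1 and 3.97 normalized counts, and the ratio of 3.60 had an exact interval from 0.605 to 36.1, so that no difference was detectable at this depth.

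Hbegf encodes HB-EGF, a membrane-anchored ligand of EGFR and ERBB4 that binds heparin. It lies on chromosome 18 from 36504927 to 36515805 on the minus strand (ENSMUSG00000024486). WT samples had 172, 188 and 177 normalized counts and Setd5+/- samples 234, 247 and 251. The groups were well apart, and the log2 fold change was 0.44 (0.22 to 0.67), or 1.36-fold. Of all tested genes, 54.2% had a smaller absolute change.

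Nrg1, which encodes neuregulin-1, the ligand of ERBB3 and ERBB4, showed the widest relative difference but at very low counts. It lies on chromosome 8 from 31814551 to 32884029 on the minus strand (ENSMUSG00000062991). WT samples received 12, 14 and 12 reads, and Setd5+/- samples received 2, 0 and 0. All 3 WT samples were above all 3 Setd5+/- samples, with means of 10.5 and 0.795 normalized counts, and the level in WT was 13.2 times that in Setd5+/- with an exact interval from 2.15 to 503. The mean over all samples, 5.64 normalized counts, kept the gene out of the tested set. A lincRNA on the other strand, Gm26578, shares 482 exonic bases with Nrg1 and received 4 reads in WT and 0 in Setd5+/-.

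Fgfr1, a receptor for FGF2, lies on chromosome 8 from 25513654 to 25575718 on the plus strand (ENSMUSG00000031565). Its WT samples had 2760, 2656 and 2641 normalized counts and its Setd5+/- samples 2479, 2491 and 2472. The Setd5+/- samples lay close together below the WT samples, at 0.924 times the WT mean, and the log2 fold change was −0.11 (−0.18 to −0.050). Gm16159 on the other strand shares 164 exonic bases with Fgfr1 and had 78.1 normalized counts in WT against 82.2 in Setd5+/-.

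Fgfr2 went the other way. Its span in the annotation, on chromosome 7 from 130162451 to 133123350 on the minus strand (ENSMUSG00000030849), reaches into Ctbp2, with which it shares 314 exonic bases on the same strand. WT samples had 286, 264 and 247 normalized counts and Setd5+/- samples 340, 391 and 343. No Setd5+/- sample was as low as the highest WT sample, and the log2 fold change was 0.43 (0.25 to 0.61), or 1.35-fold. Ctbp2, with 574 normalized counts in WT against 452 in Setd5+/-, was lower in Setd5+/-.

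Fgfr3 did not move detectably. It lies on chromosome 5 from 33721674 to 33737068 on the plus strand (ENSMUSG00000054252). The WT samples had 2279, 2340 and 2473 normalized counts and the Setd5+/- samples 2324, 2428 and 2398, so that the Setd5+/- values lay within the range of WT. The log2 fold change was 0.012 (−0.054 to 0.078), and its sign turned to −0.027 when samples were scaled to the total of counted reads. The transcript G630022F23Rik on the other strand shares 998 exonic bases with Fgfr3 and had 99.9 normalized counts in WT against 131 in Setd5+/-.

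Fgf2, the gene of the factor that was also added to the medium, lies on chromosome 3 from 37348346 to 37410108 on the plus strand (ENSMUSG00000037225). WT samples had 55.6, 62.9 and 70.4 normalized counts and Setd5+/- samples 53.6, 70.3 and 72.7. The groups overlapped, and the log2 fold change of 0.06 had a wide interval from −0.34 to 0.45. Nudt6, long known as the antisense gene of Fgf2, shares 640 exonic bases with it and was lower in Setd5+/-, with 34.5 normalized counts in WT, 19.9 in Setd5+/- and a log2 fold change of −0.77 (−1.40 to −0.14). It was named after its values were seen. Gm43439, on the same strand as Fgf2, shares 255 exonic bases with it and received 7 reads in WT and 16 in Setd5+/-. No source used here says whether the counting used strand. Reads of Fgf2 and Nudt6, and those of the other pairs on opposite strands above, can therefore be mixed. Fgfr2 and Ctbp2, like Fgf2 and Gm43439, lie on the same strand, so strand cannot separate reads on their shared exons.

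**Figure D2:**
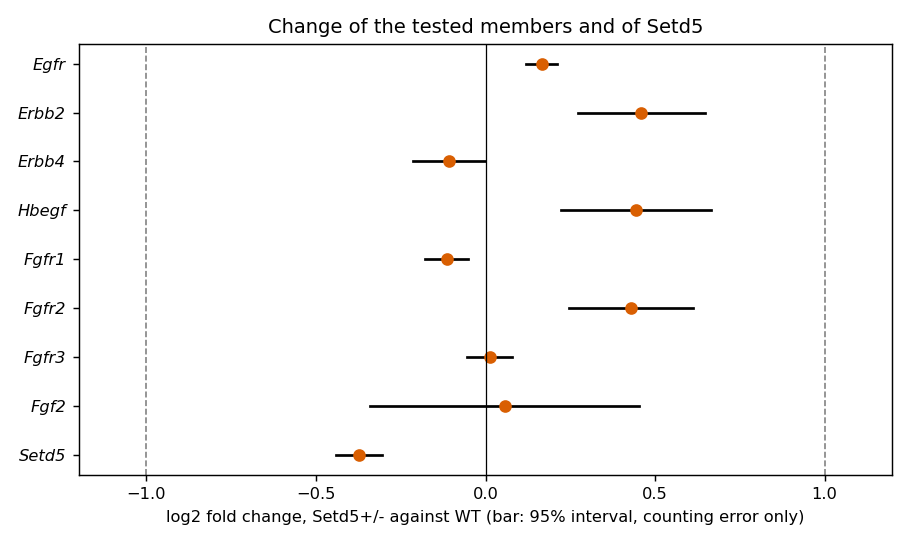
Log2 fold change (Setd5+/- against WT) of the 8 tested genes and of Setd5, each point with its 95% interval of counting error, with dashed lines at 2-fold in either direction. All points lie between the dashed lines, Erbb2 is farthest to the right at 0.46 and Setd5 farthest to the left at −0.37.

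Levels were compared between genes as normalized counts per kb of exon. With the summed length of all annotated exons, Egfr was the highest in WT at 429 per kb, followed by Fgfr3 at 330 and Fgfr1 at 272. Erbb4 at 78.0, Erbb2 at 48.4, Hbegf at 37.0 and Fgfr2 at 25.7 came next, with Fgf2 at 9.28, Nrg1 at 1.01 and Erbb3 at 0.184 at the end. With this length the order of the first 5 was the same in Setd5+/-, with 481, 333, 251, 72.4 and 66.7 per kb for Egfr, Fgfr3, Fgfr1, Erbb4 and Erbb2. Among all tested genes Egfr stood at the 94.1 percentile of the level per kb of summed exons in the mean of both genotypes. Fgfr3 stood at 91.1 and Fgfr1 at 88.1, while Fgfr2 stood at 30.6 and Fgf2 at 10.3. The order depended on the length used, among the top 3 and also among Erbb4, Erbb2, Hbegf and Fgfr2. With the longest transcript, Fgfr3 (557 per kb in WT) and Fgfr1 (533) were above Egfr (476), so that Egfr, Fgfr1 and Fgfr3 cannot be ranked among themselves, but all 3 stayed above the other 7 genes by several times. By that length Erbb4, Hbegf, Fgfr2 and Erbb2 had 80.1, 61.9, 60.0 and 50.3 per kb in WT, and 74.4, 84.4, 80.8 and 69.3 in Setd5+/-. These genes cannot be ranked among themselves either.

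**Figure D3:**
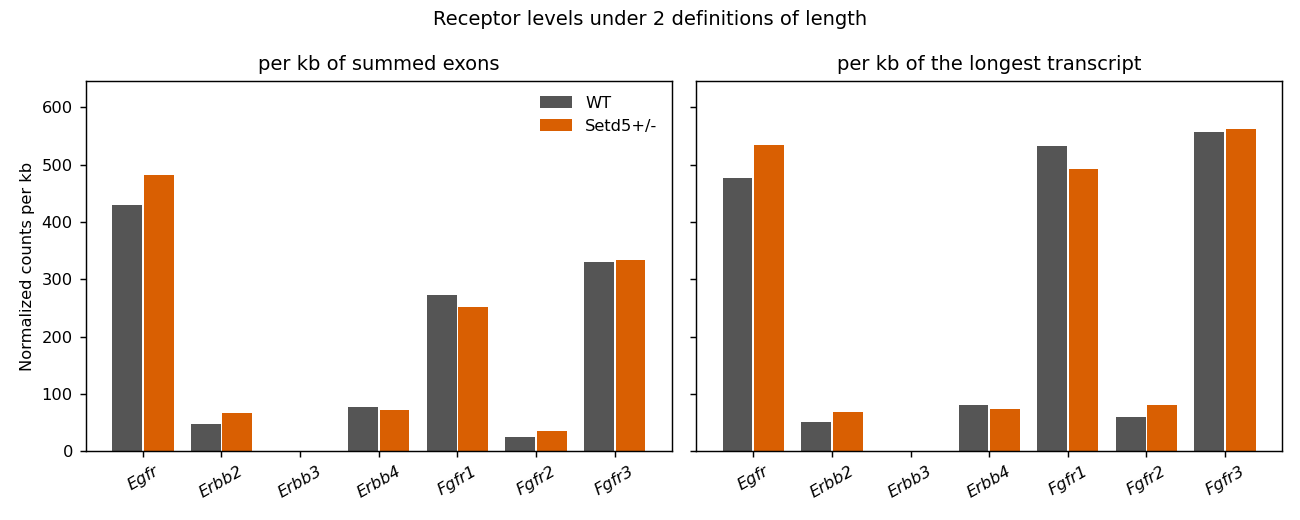
Level of each receptor in normalized counts per kb, WT beside Setd5+/-, with the summed exon length in 1 panel and the longest transcript in the other, bars from 0. Egfr, Fgfr1 and Fgfr3 exceed the other genes shown in both panels, and Egfr is first only with the summed exon length.

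Shares within a family were taken per kb of summed exons. Among the ErbB receptors, and among Fgfr1, Fgfr2 and Fgfr3, the shares of the single genes differed by at most 2.72 points between genotypes. Of the ErbB transcripts per kb, Egfr made up 77.2% in WT and 77.5% in Setd5+/-, and the ranges of the samples, 76.9 to 77.4% and 77.2 to 77.8%, overlapped. Erbb2 made up 8.72% and 10.7%, Erbb4 14.0% and 11.7%, and Erbb3 0.033% and 0.106%. Samples of the genotypes did not overlap for Erbb2 (7.79 to 9.27% in WT and 10.1 to 11.4% in Setd5+/-) or for Erbb4 (13.5 to 14.8% and 11.1 to 12.0%). Of the transcripts of Fgfr1, Fgfr2 and Fgfr3 per kb, Fgfr3 made up 52.6% in WT and 53.8% in Setd5+/-, Fgfr1 43.3% and 40.6%, and Fgfr2 4.10% and 5.60%. The share of Fgfr1 was lower by 2.72 points and that of Fgfr2 was higher, without overlap of the samples, whereas the samples of Fgfr3 overlapped.

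Ratios between genes of the same library do not depend on how the libraries were scaled. Per kb of summed exons, Egfr was 1.58 times Fgfr1 in WT and 1.92 times in Setd5+/-. The size of such a ratio depends on the length used. With the longest transcript Egfr was below Fgfr1 in WT (476 against 533 per kb) and above it in Setd5+/- (534 against 492). The difference in log2 fold change, which does not depend on length, was 0.28 (0.20 to 0.36). Erbb2 gained on Erbb4 by 0.57 (0.35 to 0.78) and Fgfr2 on Fgfr1 by 0.54 (0.35 to 0.74) on the same scale. The difference between Fgfr3 and Fgfr1 was smaller, at 0.13 (0.034 to 0.22). Egfr lost on Erbb2, by −0.29 (−0.49 to −0.10), and on its ligand gene Hbegf, by −0.28 (−0.50 to −0.054).

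Around these genes, 12 lists of the EGF and FGF pathway held 116 genes, of which 85 reached the minimum mean. Of these, 14 were at least 2-fold higher and 4 at least 2-fold lower in Setd5+/-, together 21.2% of the 85, against 16.4% of all tested genes. All 18 were genes other than the 10 described above, and made up 23.4% of the 77 other tested genes. The median log2 fold change of the 85 was 0.09. The interval left out 0 for 66 of them (77.6%), against 65.3% of all tested genes. Of the 31 genes below the minimum, 8 had no read in any sample.

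Among 11 ligand genes of the EGF family, 5 were tested and the median log2 fold change was 0.44. None differed by 2-fold, against 16.4% of all tested genes, and 3 were higher by their interval, where 32.6% were. Nrg2, a neuregulin, was highest among them in log2 fold change, at 0.89 (0.40 to 1.37), with 30.9 normalized counts in WT against 58.0 in Setd5+/-. Egf itself had 33.7 and 22.2, a log2 fold change of −0.58 (−1.19 to 0.034). Areg, the gene of the EGFR ligand amphiregulin, was below the minimum mean and received 4 reads in WT and 47 in Setd5+/-, a ratio of 16.9 with an exact interval from 4.26 to 141. Epgn and Btc, ligand genes also below the minimum, went the other way. Epgn received 18 reads in WT and 2 in Setd5+/-, and Btc received 15 and 4. The exact intervals of their ratios reached up to 1.12 and 1.92 and so included 1. Areg, Epgn and Btc were named after their values were seen.

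Of 18 secreted FGF genes, 14 were detected but only Fgf1 and Fgf2 reached the minimum mean. Fgf1, the gene of acidic FGF, had 288 normalized counts in WT against 265 in Setd5+/-, a log2 fold change of −0.12 (−0.32 to 0.073). The 4 FGF homologous factors are not secreted and act inside the cell on sodium channels. The 3 tested ones were lower by their interval, as were 32.7% of all tested genes, and 2 were at least 2-fold lower, as were 6.14% of all tested genes, with a median of −1.65. Fgf12 had 79.5 normalized counts in WT against 21.4 in Setd5+/- (log2 fold change −1.84, −2.40 to −1.28), Fgf14 had 50.8 and 15.5 (−1.65, −2.31 to −0.99), and Fgf11 had 399 and 336 (−0.25, −0.42 to −0.079).

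Fgfrl1 was the exception among the FGF receptor genes. It encodes a receptor of the family that lacks the tyrosine kinase domain, and it had 1125 normalized counts in WT against 3455 in Setd5+/-, 3.07-fold higher with a log2 fold change of 1.62 (1.54 to 1.69). Counted with Fgfr1, Fgfr2 and Fgfr3 per kb of summed exons, a choice made after its values were seen, Fgfrl1 made up 39.2% in WT and 66.7% in Setd5+/-, while Fgfr1 made up 26.3% and 13.5%, Fgfr3 32.0% and 17.9%, and Fgfr2 2.49% and 1.86%. The share of Fgfr2 was then lower in Setd5+/-, where it was higher among the 3 kinase receptors alone. With the longest transcript Fgfrl1 made up 29.6% and 56.7%. No other gene of the 5 in this list was at 2-fold with a mean of at least 10, and Fgfr4 received 11 reads in WT and 16 in Setd5+/-. Over all tested genes 16.4% were at 2-fold in either direction.

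The proteases that release membrane-bound EGF ligands, with their regulators, had a median log2 fold change of 0.79. By their interval 5 of 7 tested genes were higher and none was lower, where 32.6% of all tested genes were higher and 32.7% lower. At 2-fold 1 of the 7 was higher, where 10.3% of all tested genes were. This was Adam9, a metalloprotease, with 1447 normalized counts in WT against 3746 in Setd5+/- (2.59-fold, log2 fold change 1.37). Bace1, a protease that cuts neuregulin-1, had the lowest log2 fold change of the list at −0.031 (−0.14 to 0.079).

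The 2 lists around heparan sulfate, the co-receptor of FGF, held 10 of the 18 genes at 2-fold. The list for its core proteins, FGF binding proteins and other coreceptors had 14 tested genes. Of these, 7 were at least 2-fold higher and 1 was at least 2-fold lower, where 10.3% and 6.14% of all tested genes were. The median log2 fold change was 0.76. All 4 syndecans were among the 7, with log2 fold changes of 1.33 for Sdc1, 1.57 for Sdc2, 1.36 for Sdc3 and 1.44 for Sdc4. For Sdc3 this was a step from 7554 to 19327 normalized counts. Gpc1, a glypican, had the highest log2 fold change of this list at 1.90 (1.84 to 1.95), with 1941 and 7238 normalized counts, and it lies on chromosome 1. Cd44, a surface proteoglycan, followed at 1.89 (1.71 to 2.06), and Gpc4 reached 1.02 (0.88 to 1.16). Gpc2 went the other way, from 996 to 481 normalized counts (−1.05, −1.18 to −0.92). Gpc5, below the minimum mean, received 54 reads in WT and 0 in Setd5+/-. It was at least 6.26-fold lower against a floor of 3 read pairs over the 3 Setd5+/- samples, which leaves out the counting error of WT, while the exact interval of the ratio, which includes it, reached up to 0.204 times WT. It was named after its values were seen.

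Of 10 tested enzymes that build or edit heparan sulfate, 9 were higher by their interval, where 32.6% of all tested genes were, and none was lower. At 2-fold 2 were higher, where 10.3% of all tested genes were, and the median log2 fold change was 0.77. Glce, the epimerase that turns glucuronic into iduronic acid, had 293 normalized counts in WT against 1567 in Setd5+/- (2.41, 2.28 to 2.55). Hs6st2, a sulfotransferase, had 50.8 and 243 (2.24, 1.91 to 2.56). Ext1, which lengthens the chain, had a log2 fold change of −0.0059 (−0.11 to 0.097). Ndst1, a sulfotransferase named after its values were seen, had 660 normalized counts in WT against 1320 in Setd5+/-, a plain ratio just over 2, and only the pseudocount of 1 put it under the threshold, at a log2 fold change of 0.999. Without a pseudocount 19 pathway genes were at 2-fold.

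Among 10 inhibitors and genes of receptor turnover, all tested, the median log2 fold change was 0.30. At 2-fold 2 were higher, where 10.3% of all tested genes were. By their interval 6 were higher and 3 lower, where 32.6% and 32.7% of all tested genes were. Lrig3, of the LRIG family whose member LRIG1 restrains ErbB receptors, had 69.0 normalized counts in WT against 317 in Setd5+/- (2.18, 1.90 to 2.47). Errfi1, the gene of the EGFR inhibitor MIG6, lay at the threshold, with 124 and 249 normalized counts (1.00, 0.76 to 1.24). Socs5 was lowest at −0.35 (−0.57 to −0.14).

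Below the receptors, differences were small for most genes. Of 11 adaptors and first effectors, 4 were higher and 5 lower by their interval, where 32.6% and 32.7% of all tested genes were. Their median log2 fold change was −0.084. Only Shc1, with 107 normalized counts in WT against 243 in Setd5+/-, passed 2-fold (1.17, 0.92 to 1.43). Over all tested genes 10.3% were at least 2-fold higher, close to this 1 of 11. Frs3, an adaptor of FGF receptors, was lowest at −0.40 (−0.71 to −0.098). None of 13 genes of the RAS, RAF, MEK and ERK chain passed 2-fold, against 16.4% of all tested genes. By their interval 2 were higher and 6 lower, where 32.6% and 32.7% of all tested genes were, and the median was −0.059. Nras had the highest log2 fold change of this list, at 0.33 (0.25 to 0.41). The 3 ETS factors that FGF signalling is known to induce were lower by their interval, as were 32.7% of all tested genes. At 2-fold 1 of them was lower, where 6.14% of all tested genes were. Etv4 had 3038 normalized counts in WT against 887 in Setd5+/- (−1.78, −1.87 to −1.68), Etv1 had 731 and 579 (−0.33, −0.46 to −0.21), and Etv5 had 1578 and 1449 (−0.12, −0.21 to −0.039).

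**Figure D4:**
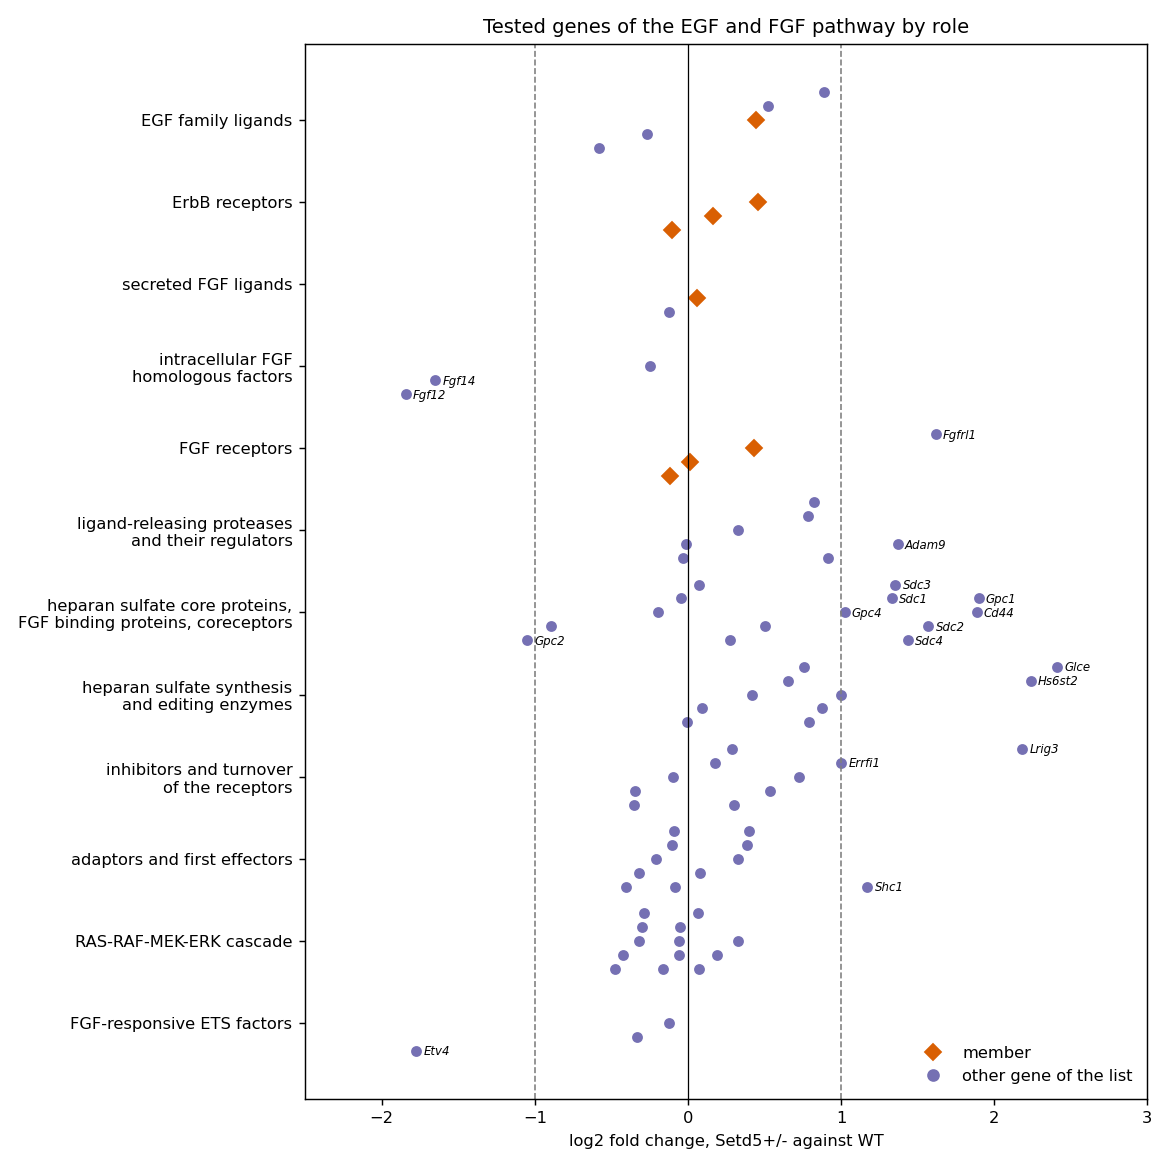
Log2 fold change (Setd5+/- against WT) of the 85 tested pathway genes in 12 lists by role, with the tested genes described above as diamonds, other genes as circles, and dashed lines at 2-fold. The diamonds lie between the dashed lines in every list that holds them. The labelled genes beyond the right line include 4 syndecans, Glce, Hs6st2, Lrig3 and Fgfrl1, and Fgf12, Fgf14, Etv4 and Gpc2 lie beyond the left line.

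Markers of cell types differed between the libraries beside these genes, and in bulk samples fewer cells of a type cannot be told apart from less RNA per cell. Summed over the list, 7 markers of neural stem cells ranged from 53065 to 53474 normalized counts in WT samples and from 32293 to 32614 in Setd5+/- samples, all 7 were tested, and Fabp7 alone had 36015 in WT and 11490 in Setd5+/-. Without Fabp7 the sum turned, from 17188 in WT to 20989 in Setd5+/-. By interval 5 of the 7 were lower, among them Nes (2378 and 1951) and Sox2 (3119 and 2732), and 2 were higher, Vim (9095 and 13822) and Pax6 (402 and 530). Of all tested genes, 32.7% were lower and 32.6% higher by interval. Forebrain markers, 5 of 7 tested, summed to between 1650 and 1782 in WT and between 1009 and 1118 in Setd5+/-. By interval 4 of the 5 were lower, while Six3 (6.07 and 17.1) was higher. Emx1, a marker of the cortex, had 2 reads in WT and 0 in Setd5+/-. Oligodendrocyte lineage markers, 7 of 8 tested, summed to 40997 to 41788 in WT and 23688 to 24533 in Setd5+/-, with Sox10 at 298 and 1.59 but Cspg4 at 769 and 1448. Astrocyte markers, 6 of 6 tested, summed to 26383 to 26555 and 23483 to 23901, of which Slc1a3 gave 20983 and 21117. The list was mixed, with a median log2 fold change of 0.56: Gfap (17.1 and 263), Aqp4 (57.7 and 187) and S100b (339 and 737) were at least 2-fold higher in Setd5+/-, and Slc1a2 (4678 and 1225) and Aldh1l1 (380 and 147) at least 2-fold lower. Neuronal markers, 4 of 6 tested, summed to 10330 to 10700 and 12539 to 12666, of which Map2, on chromosome 1, gave 9983 on average in WT and 12445 in Setd5+/-. Without Map2 the sum was 493 in WT and 159 in Setd5+/-, with Dcx at 248 and 26.2, Syn1 at 174 and 84.2 and Tubb3 at 62.9 and 48.4, Rbfox3 at 27 reads and 0, and the median log2 fold change of the list was −0.70. Mesenchymal markers, 0 of 7 tested, summed to 5.79 to 14.1 and 2.38 to 14.3, and Lum and Twist1 had no reads. Microglial markers, 1 of 5 tested, summed to 78.6 to 117 and 48.9 to 70.3, with Cx3cr1 and Ptprc at 0 reads, and endothelial markers, 1 of 5 tested, to 9.11 to 16.5 and 13.1 to 26.2. The marker genes were named after their values were seen. The part of these differences in the results above was not tested.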

How the data were processed

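RNA-seq of WT and Setd5+/- NSCs grown at 21% oxygen was used, with 3 labelled samples of each genotype. The authors trimmed reads with Trimmomatic, aligned them with Bowtie2 to mm10 and divided gene counts by DESeq2 size factors. Versions, the counter and strand are not given in the sources used here. The deposited values are normalized counts that had lost decimal points, so their type was recorded as other. The columns of the authors' own comparison (log2 fold changes and p-values) were not used.

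Decimal points were restored so that every value was a whole number of reads in its sample, and the deposited mean settled 1116 genes. All 52438 genes with values then matched the deposited mean, and 672 genes had no values. For the 1116 genes this match was the criterion of choice and is no separate check. The procedure was tested on simulated data. Log2 fold changes are log2(mean + 1) of Setd5+/- minus that of WT. Counts varied at 1.94 times their mean within a genotype, as when both ends of a read pair are counted, and this factor entered the 95% intervals, by the delta method for log2 fold changes and by an exact conditional interval for ratios of low counts. Depth is 9995980 to 10004948 reads per WT sample and 7143309 to 7146147 per Setd5+/- sample. The comparison took in genes whose mean normalized count was 10 or more. Exon lengths and overlaps came from GENCODE M21, to which 52402 identifiers matched. Python 3.11.15, numpy 2.4.6, scipy 1.17.1, pandas 2.3.3 and matplotlib 3.10.9 were used.

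The genes and lists were chosen with earlier results of these data known. Beside the 10 genes and Setd5, each pathway list gave the tested gene with the highest and the one with the lowest log2 fold change and every tested gene at 2-fold (1 gene that this rule picked is not reported here), and overlapping genes were named for their shared exons. No gene was named for a like pattern, since 2 libraries give a single contrast.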

Additional observations from a re-analysis of the deposited data

How the results depend on the processing

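Other pseudocounts, scalings, averaging, reference medians and leaving out single samples gave 112 further log2 fold changes for the 8 tested genes, and 110 stayed within the counting interval of the value reported. Relative to the median of their own chromosome, Egfr moved to 0.27 and Erbb4 to −0.64. Counting Fgfrl1 with the FGF receptors, chosen after seeing the data, moved the change in the share of Fgfr1 from −2.72 to −12.8 points. The signs of Fgfr3 and Fgf2 were not fixed: without single samples they ran from −0.014 to 0.046 and from −0.024 to 0.18. The count of the 10 genes at 2-fold was 0, but 2 without a minimum mean (Erbb3 and Nrg1), and 6 had intervals without 0. The 18 pathway genes became 31 without a minimum mean, 29 at 1.5-fold and 66 by interval, and 17 to 19 without single samples. The 2666 genes of the whole table became 5541 without a minimum mean, 1620 with a minimum of 50, 5722 at 1.5-fold and 10620 by interval, and 2688 to 2733 without single samples. Scaling to the total of counted reads moved the median log2 fold change of the tested genes by −0.039. Samples of the same number shared no deviation (correlations of 0.0049, 0.0015 and −0.0071 across genes), so the numbers do not pair them. With the replicate number as a block Egfr was at 0.17, Erbb4 at −0.11, the 10 genes gave 0 calls, the pathway genes 18 and all genes 2717. The samples of a genotype are portions of a single library, so agreement without single samples says nothing of other cultures or clones, and genes with few reads such as Erbb3, Nrg1 and Fgf2 are limited by depth.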
